A study of Mus musculus with 6 samples.

Results

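The genes described are 9 members of the renin-angiotensin system, measured by RNA sequencing in hearts from 2 groups of 3 mice, Ang II and Ang II + Tec. They were taken by gene symbol from a table of 30914 genes: Agt, Ace, Agtr1a, Agtr1b, Agtr2, Mas1, Lnpep, Enpep and Agtrap, and all 9 symbols had 1 row each. By the labels all mice were wild-type C57BL/6J males, 8 weeks of age at the start, and all of them received angiotensin II (Ang II) from osmotic pumps at 1 μg/kg/min for 4 weeks. The Ang II + Tec group was in addition given tectochrysin (Tec), a plant flavonoid, at 5 mg/kg during the last 2 weeks. Both groups thus carried the infused peptide, and no saline group was analysed here, so the comparison is of Tec on a background of Ang II and not of Ang II itself. The infused hormone is a peptide and leaves no transcript, so the libraries do not report its dose. Nnt, the mitochondrial transhydrogenase gene that is disrupted in C57BL/6J, bears on the strain label and has 2 overlapping records in the table. ENSMUSG00000025453 was at 55.78, 44.84 and 86.41 FPKM in Ang II hearts and 26.97, 25.52 and 2.54 FPKM with Tec, and ENSMUSG00000116207 was listed at 0 in all 3 Ang II hearts and at 38.84, 32.02 and 81.89 FPKM with Tec. Each record thus separated the groups, in opposite directions, and the second was 1 of the 24 genes called by limma (adjusted p = 0.0020), whereas the sums of the records, 55.78, 44.84 and 86.41 against 65.81, 57.54 and 84.43 FPKM, overlapped. How reads were divided between the records is not given in the sources used here, and whether both groups share a substrain was not tested. Nothing in the sources says that hearts were pooled, and each library is treated here as 1 mouse.

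The renin-angiotensin system forms a peptide hormone by steps of proteolysis. Renin cuts angiotensinogen (Agt) to angiotensin I, angiotensin-converting enzyme (Ace) trims this to Ang II, and Ang II acts mainly on the type 1 receptor, which mice encode in a pair of genes, Agtr1a and Agtr1b. In the heart the type 1 receptor is known for its part in hypertrophy and fibrosis, whereas the type 2 receptor (Agtr2) and the Mas receptor (Mas1) are usually described as opposing it. Aminopeptidases such as Enpep and Lnpep act on or bind the products, and Agtrap binds the tail of the type 1 receptor and promotes its internalisation.

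The hormone is encoded within Agt, on the minus strand of chromosome 8 (ENSMUSG00000031980, GRCm38, chr8:124556534-124569706). The stretch of coding sequence for Ang II, shown because it is the peptide that was infused, lies in exon 2 of transcript Agt-201 at chr8:124564456-124564479 and reads, 5′ to 3′ on the coding strand, as follows.
Agt, Ang II codons: gaccgcgtatacatccaccccttc
The pumps delivered the peptide, so any transcript that holds these codons is the animal's own.

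Agtr1a (ENSMUSG00000049115, chr13:30336441-30382867, plus strand) and Agtr1b (ENSMUSG00000054988, chr3:20314473-20367177, minus strand) encode near-identical receptors, and their sequences matter here because reads could in principle be assigned to the wrong copy. Their coding sequences are both 1077 bases long and differ at 99 positions (90.8% identical), and the longest stretch without a difference is 66 bases. The first 60 coding bases and the 60 that differ most are shown, with capitals at the bases that differ between the genes.
Agtr1a, first 60, chr13:30380954-30381013: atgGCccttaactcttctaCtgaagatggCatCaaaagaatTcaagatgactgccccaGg
Agtr1b, first 60, chr3:20316381-20316440: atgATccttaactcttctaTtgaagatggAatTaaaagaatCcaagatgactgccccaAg
Agtr1a, most different, chr13:30381917-30381976: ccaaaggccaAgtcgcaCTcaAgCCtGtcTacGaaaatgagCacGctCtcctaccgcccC
Agtr1b, most different, chr3:20315418-20315477: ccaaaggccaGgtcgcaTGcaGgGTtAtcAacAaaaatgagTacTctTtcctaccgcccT
The first pair differs at 7 bases and the second at 13. The sequences are from GENCODE M21. How reads that fit both copies were assigned is not given in the sources used here, so the split between Agtr1a and Agtr1b carries that uncertainty.

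The values are FPKM, fragments relative to transcript length and to all mapped fragments, so levels can be compared between genes per length. Depth is known only in relative terms, from the spacing of the lowest values, and it ranged from 0.878 in Ang II + Tec replicate 1 to 1.19 in Ang II + Tec replicate 2. The summed FPKM of 6 cardiomyocyte markers was high in every library, between 7282 and 8965, as the label heart requires. The libraries differed in atrial transcripts. The atrial myosin light chain Myl7 stood at 418.96 and 332.29 FPKM in Ang II replicates 1 and 2 and at 1039.78 in Ang II + Tec replicate 2, against 0 in Ang II replicate 3 and 0 and 1.58 in Ang II + Tec replicates 1 and 3. The sum over 4 atrial markers, led by the natriuretic peptide gene Nppa, was 6204, 10250 and 256.2 FPKM in Ang II replicates 1 to 3 and 906.4, 5032 and 127.5 FPKM with Tec. Ang II replicates 1 and 2 and Ang II + Tec replicate 2 thus stood apart from the other 3 libraries, and the members are also given within each kind of library below. Actc1 was the most abundant cardiomyocyte marker.

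The members covered a wide range of levels. Over the 6 libraries Ace was the most abundant, at 16.04 ± 7.74 FPKM (SD, n = 6), above 85.5% of the tested genes. Agtr1a at 7.99 ± 1.56, Agtrap at 7.91 ± 0.930 and Lnpep at 6.73 ± 0.806 FPKM followed, and these 3 neighbours did not differ beyond their spread. Agtr1a exceeded Agtrap in 4 of 6 libraries and Agtrap exceeded Lnpep in 5 of 6. Enpep at 1.77 ± 0.382 FPKM and Agt at 1.18 ± 0.326 FPKM lay lower, again with overlapping ranges, and both were below the range of Lnpep. Agt, the precursor of the hormone, was thus above only 19.6% of the tested genes in these hearts. Mas1 averaged 0.257 ± 0.174 FPKM, and Agtr1b and Agtr2 were at or near 0. Ace stood above Agtr1a in all 6 libraries, but the ranges of these genes over the libraries overlapped.

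**Figure D1:**
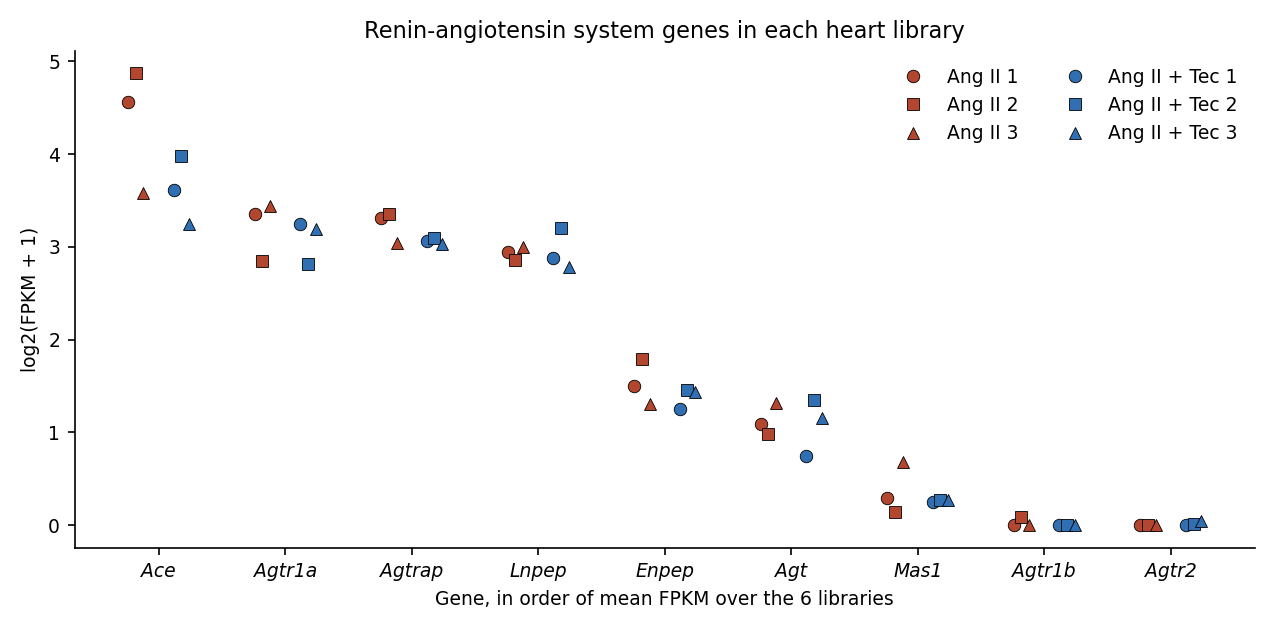
Level of each of the 9 genes on log2(FPKM + 1) in each library, with 1 point per mouse, Ang II in red and Ang II + Tec in blue, and the shape giving the replicate number. Ace spreads most, from 8.49 to 28.25 FPKM, and no gene has all points of one group clear of the other.

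A gene was tested if it reached 0.5 FPKM in at least 3 of the 6 libraries. This left 6 of the 9 members, while Mas1, Agtr1b and Agtr2 were below the filter. Of the 6, none was called between the Ang II + Tec and Ang II groups by limma with Benjamini-Hochberg adjustment over the 13089 genes tested, where 0.183% of all genes were called (24 genes). At an unadjusted p under 0.05 the members again gave 0, against 18.6% of all genes, and 0 of the 6 had groups that did not overlap, against 21.8% of all genes. Of the 6 fold changes 5 were negative and 1 was positive, with a median of -0.14 on the log2(FPKM + 1) scale. The median over all tested genes was -0.17 and 80% of them were negative, so the members' count of lower values was close to that of the whole table. The share of FPKM from mitochondrial genes moved with this, at 41.3, 40.1 and 48.9% in Ang II hearts and 51.3, 49.6 and 52.5% with Tec, and the groups did not overlap. The balance of higher and lower genes depended on the scaling. With FPKM as deposited 274 genes were higher and 2165 lower with Tec at an unadjusted p under 0.05, against 303 and 1785 after rescaling to the same sum without mitochondrial genes (76.8% of all tested genes negative). The counts were 963 and 1073 after the median-of-ratios scaling, which moved the median of all genes to 0.0020 and left Ace and Enpep as the 2 members with a negative value. All folds are on the log2(FPKM + 1) scale, which understates the change of low genes. With 3 mice against 3 an exact permutation test (two-sided) cannot go below 0.1 for a single gene.

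Angiotensinogen, the substrate, differed little between the groups. Agt was at 1.13, 0.97 and 1.5 FPKM in Ang II replicates 1 to 3 and 0.68, 1.54 and 1.23 FPKM in the same order with Tec. Both the lowest and the highest of the 6 values belonged to the Ang II + Tec group, and the groups overlapped. Its log2 fold change was -0.047 (SE 0.18, 95% interval -0.46 to 0.37, adjusted p = 0.884 with limma). Rescaling the libraries by the median of ratios turned the sign, to 0.064. Transcripts of the liver, the main source of circulating angiotensinogen, were nearly absent, since 4 hepatocyte markers led by Ttr summed to between 0.04 and 0.81 FPKM. Renin itself, the enzyme that cuts Agt and that the kidney supplies to the blood, was listed at 0 in 4 libraries, at 0.09 FPKM in Ang II replicate 2 and at 0.19 FPKM in Ang II + Tec replicate 2 (Ren1). These are about 2.3 and 6.3 fragments, and no fold was computed from them. The same pair of libraries held the highest sums over 5 adipocyte markers, 9.93 and 62.89 FPKM, led by Cidec, a protein of lipid droplets, and their part in the Ren1 values was not tested.

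Ace had the largest difference of the 6 members tested, and its groups overlapped. The gene encodes the membrane-bound peptidyl-dipeptidase that forms Ang II and degrades bradykinin, and it is best known from the endothelium (ENSMUSG00000020681, chr11:105967945-105989964, plus strand). An antisense gene that overlaps it, Gm11651, was at 0.01 FPKM or less. It was at 22.58, 28.25 and 10.96 FPKM in Ang II hearts and 11.23, 14.75 and 8.49 FPKM in Ang II + Tec hearts. Ang II replicates 1 and 2 were the highest of all 6, but Ang II replicate 3 was lower than Ang II + Tec replicates 1 and 2. The group means were 20.6 ± 8.81 and 11.49 ± 3.14 FPKM (SD, n = 3 each). The log2 fold change was -0.72 (SE 0.34), with a 95% interval from -1.53 to 0.077 and an adjusted p of 0.294 with limma, and the exact permutation test gave p = 0.3. The interval reached from a slightly higher level with Tec to one far lower. When Ang II replicate 3 was left out, the value was -1.10 and passed the threshold (adjusted p = 0.0123, limma), and without any other library it did not. In that same fit 28.8% of all tested genes were called (3776 genes), so 1 of the 6 members was not more than the background. With array weights, which give each library its own weight and whose estimation stopped before it converged, Ace was at -1.26 (adjusted p = 0.0309, limma), where 27.1% of all tested genes were called.

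Ace varied across the libraries together with several marker sums. The 3 libraries with the highest Ace, Ang II replicates 1 and 2 and Ang II + Tec replicate 2, were the same 3 that held atrial Myl7. They also had the 3 highest sums over 6 fibroblast markers, 575.6, 750.6 and 209.6 FPKM, against 152.3 in Ang II replicate 3 and 129.9 and 145.4 in Ang II + Tec replicates 1 and 3. Dcn, a proteoglycan of the matrix, was the most abundant gene of that list, of which all 6 genes were tested. All 6 had negative fold changes, against 80% of all tested genes, with a median of -1.23. Of the 6, 0 were called and 3 were lower at an unadjusted p under 0.05, against 16.5% of all tested genes (Col1a1, Col3a1 and Lum, with log2 fold changes of -2.74, -2.72 and -1.65). The part of these transcripts in the Ace values was not tested. The sum over 6 mural cell markers, led by Acta2, was 119.7, 187.9 and 105.3 FPKM in Ang II hearts and 86.9, 190.1 and 93.66 FPKM with Tec, so its 3 highest libraries were again these. Within that list Acta2 (smooth muscle actin), Pdgfrb and Cspg4 were each highest in these libraries. The smooth muscle myosin gene Myh11 was highest in Ang II replicate 2 and Ang II + Tec replicate 2. The pericyte channel genes Kcnj8 and Abcc9 were instead highest in Ang II + Tec replicate 1, at 19.26 and 19.04 FPKM. By contrast the sum over 5 endothelial markers, led by Cdh5, stayed between 61.4 and 70.72 FPKM in all 6 libraries. Within that list Pecam1 was highest in the same 3 libraries as Ace, and no further gene of the list was. Pecam1 was at 20.52, 24.31 and 19.59 FPKM in Ang II hearts and 17.16, 22.75 and 19.85 FPKM with Tec. Of the endothelial list 0 genes were called and 1 of 5 was lower at an unadjusted p under 0.05, close to the 16.5% of all tested genes. This was the VEGF receptor gene Kdr, at 9.03, 7.68 and 9.44 FPKM in Ang II hearts and 6.94, 7.51 and 5.71 FPKM with Tec (log2 fold change -0.33). Its groups did not overlap, as for 21.8% of all genes. Among the libraries with atrial transcripts the difference of mean log2 Ace, Ang II + Tec minus Ang II, was -0.74 (2 Ang II mice and 1 with Tec), and among those without them it was -0.15 (1 and 2). With the presence of atrial transcripts as a factor in the fit the difference was -0.44 (adjusted p = 0.244, limma). Within the libraries with and without atrial transcripts the other tested members gave differences between -0.28 (Agtr1a) and 0.31 (Agt), and between -0.37 (Agt) and 0.035 (Enpep), respectively. The difference of Agtr1a was negative in both kinds, and the other 4, Agt, Lnpep, Enpep and Agtrap, had opposite signs in them, with Agtrap at -0.24 and 0.00081. In bulk tissue, fewer cells of a type and less RNA per cell cannot be told apart.

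**Figure D2:**
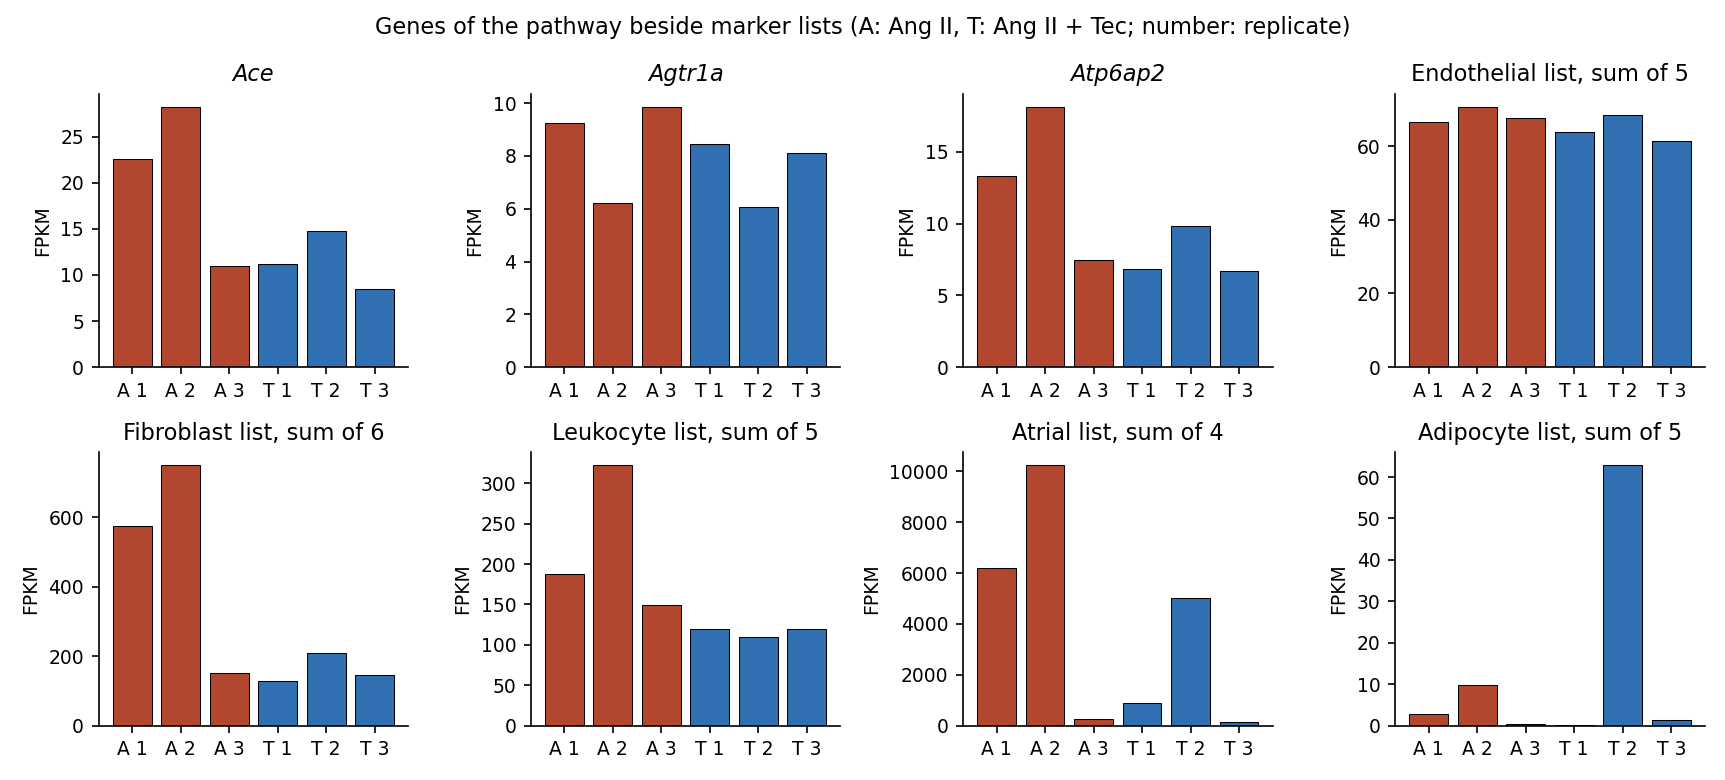
FPKM in each library (A, Ang II in red; T, Ang II + Tec in blue; the number is the replicate) of Ace, Agtr1a and Atp6ap2 and summed FPKM of 5 marker lists. Ace and Atp6ap2 are highest in A 1, A 2 and T 2, the 3 libraries with the highest fibroblast sums, while the endothelial sum stays between 61.4 and 70.72 FPKM.

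Among the receptors only Agtr1a was well measured. It was at 9.24, 6.22 and 9.87 FPKM in Ang II hearts and 8.46, 6.06 and 8.11 FPKM in Ang II + Tec hearts. Replicate 2 was the lowest of its group in both, and the groups overlapped. The log2 fold change was -0.13 (SE 0.19, 95% interval -0.59 to 0.32, adjusted p = 0.684 with limma). It became 0.074 when the libraries were rescaled by the median of ratios. Its order across libraries was unlike that of Ace, which was highest in replicate 2 of each group. The 2 libraries lowest for Agtr1a were also those with the most adipocyte and mesothelial transcripts. The sums over 4 mesothelial markers were 10.15 and 14.64 FPKM there and at most 3.67 elsewhere. Upk3b had the highest mean of these markers over all libraries, and their part in the Agtr1a values was not tested. Gm48161, which lies within an intron of Agtr1a on the same strand, is listed separately at between 0.4 and 0.6 FPKM.

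The second type 1 receptor gene and the type 2 receptor gene were barely detectable. Agtr1b was listed at 0 in 5 libraries and at 0.06 FPKM in Ang II replicate 2, about 2.1 fragments. Agtr2 (ENSMUSG00000068122, chrX:21484544-21489164, plus strand) was listed at 0 in all 3 Ang II libraries and in Ang II + Tec replicate 1, and at 0.01 and 0.03 FPKM in Ang II + Tec replicates 2 and 3. The higher of these is about 2.0 fragments. Neither gene could be compared between the groups at this depth, and a listed 0 does not show that the gene was silent.

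Mas1, the receptor of angiotensin 1-7, was low but present in every library. It was at 0.23, 0.10 and 0.60 FPKM in Ang II hearts and 0.19, 0.21 and 0.21 FPKM in Ang II + Tec hearts, that is between about 3.9 and 23 fragments. The Ang II values enclosed all 3 Ang II + Tec values (exact permutation p = 0.7). Mas1 (ENSMUSG00000068037, chr17:12841079-12868143, minus strand) overlaps the antisense transcript Airn, which was at 0.89 to 1.18 FPKM, and since the strand setting of the counting is not given in the sources used here, reads of the 2 genes cannot be told apart.

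Agtrap, the receptor-associated protein (ENSMUSG00000029007, chr4:148077061-148088031, minus strand), had the smallest SD of the tested members among Ang II + Tec hearts. It was at 8.93, 9.26 and 7.25 FPKM in Ang II hearts and 7.33, 7.52 and 7.18 FPKM in Ang II + Tec hearts (8.48 ± 1.08 against 7.34 ± 0.170, SD, n = 3 each). Ang II replicates 1 and 2 were above all Ang II + Tec values, and Ang II replicate 3 lay among them. The log2 fold change was -0.18 (SE 0.12, 95% interval -0.46 to 0.11, adjusted p = 0.413 with limma), and the median-of-ratios scaling made it 0.032.

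The aminopeptidases did not separate the groups either. Enpep, aminopeptidase A (ENSMUSG00000028024, chr3:129269175-129332720, minus strand), which shortens Ang II to angiotensin III, was at 1.84, 2.47 and 1.48 FPKM in Ang II hearts and 1.39, 1.74 and 1.70 FPKM in Ang II + Tec hearts. Ang II replicates 1 and 2 were again the highest, and Ang II replicate 3 lay within the Ang II + Tec values. Its log2 fold change was -0.16 (SE 0.15, 95% interval -0.51 to 0.195, adjusted p = 0.541 with limma). Lnpep, the insulin-regulated aminopeptidase that binds angiotensin IV (ENSMUSG00000023845, chr17:17521410-17625050, minus strand), was at 6.71, 6.24 and 7.00 FPKM in Ang II hearts and 6.38, 8.18 and 5.89 FPKM in Ang II + Tec hearts. Ang II + Tec held both the highest and the lowest value. Lnpep was the member with a positive fold change, 0.021 (SE 0.14, 95% interval -0.30 to 0.345, adjusted p = 0.934 with limma), a value near 0 whose interval reached in both directions.

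**Figure D3:**
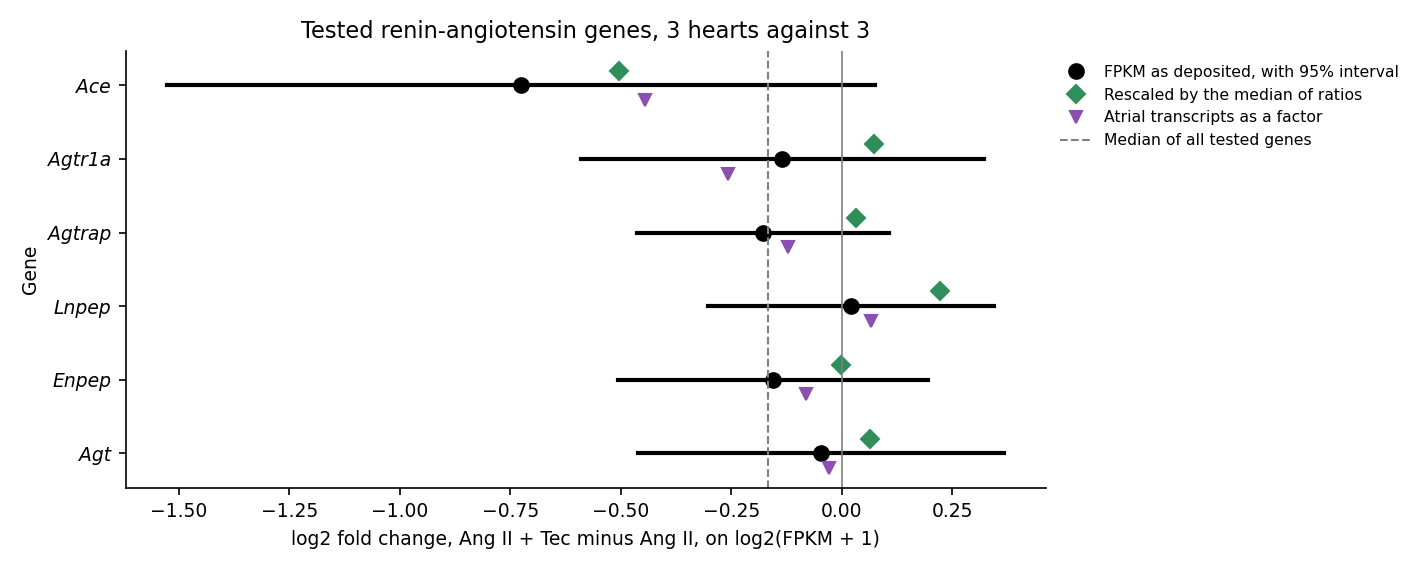
Log2 fold change (Ang II + Tec minus Ang II, on log2(FPKM + 1)) of the 6 tested members, with black points and 95% intervals for FPKM as deposited, green diamonds for the median-of-ratios scaling and violet triangles with atrial transcripts as a factor. All 6 intervals include 0, and the dashed line marks the median of all tested genes, -0.17.

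The position of single members depended on which mice were included. Ace was at its lowest, -1.10, when Ang II replicate 3 was left out and at its highest, -0.46, when Ang II replicate 2 was, and it stayed negative in all 6 fits that left out 1 library. Agt ranged from -0.18 to 0.12 and Lnpep from -0.10 to 0.11, so that both changed sign. Agtrap, Enpep and Agtr1a stayed negative in these 6 fits, Agtrap between -0.28 and -0.12, Enpep between -0.27 (Ang II replicate 3 left out) and -0.027 (Ang II replicate 2 left out) and Agtr1a between -0.32 and -0.0022. With Ang II replicate 3 left out the groups of 3 members, Ace, Agtrap and Enpep, no longer overlapped, against 60.5% of all tested genes in that setting. With Ang II replicate 2 left out the groups of 1 member, Agtr1a, did not overlap, against 25.1% of all tested genes.

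**Figure D4:**
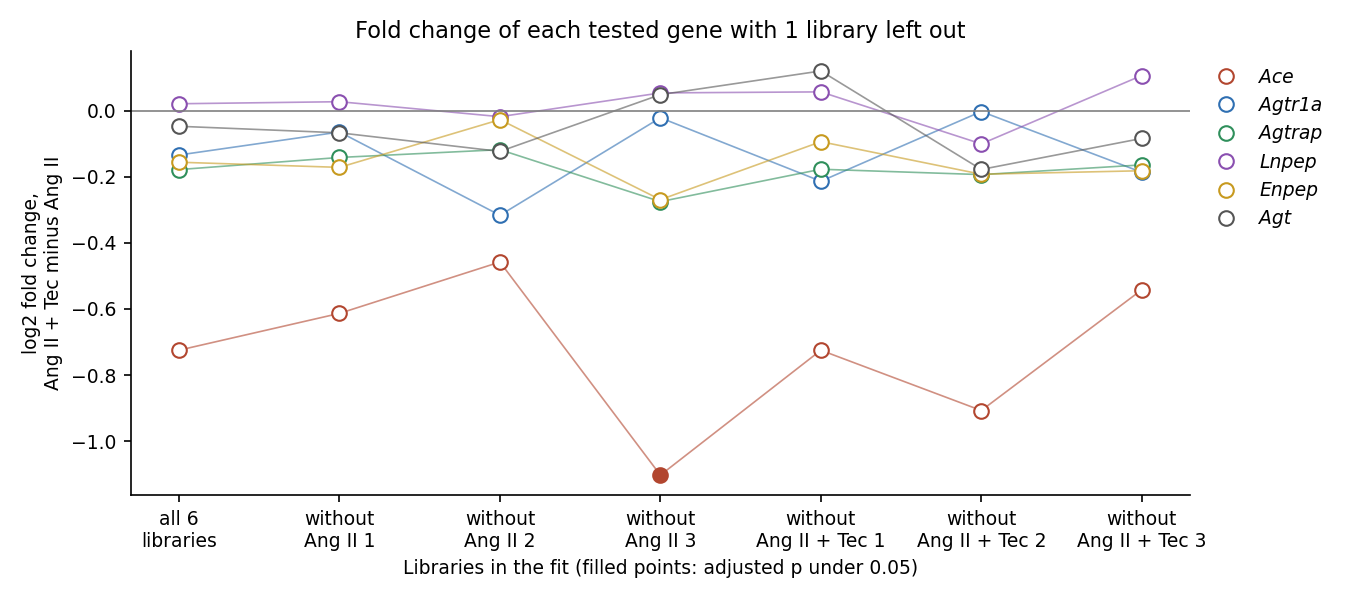
Log2 fold change of the 6 tested members (vertical axis, Ang II + Tec minus Ang II) in the fit of all 6 libraries and in the 6 fits that left out 1 library each. Filled points have an adjusted p under 0.05, which holds for Ace without Ang II replicate 3 (-1.10) and for no other point.

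The wider pathway was examined through 5 further lists of genes. Of the other peptidases 15 of 16 had a row in the table and 12 were tested, and 0 were called. At an unadjusted p under 0.05, 2 had lower values with Tec, Prcp and Ctsa, where 16.5% of all tested genes were lower, so the count was at the background. The list's median was -0.21 against -0.17 for all genes, and it was -0.033 with median-of-ratios scaling and -0.034 with quantile normalization. Prcp, a lysosomal carboxypeptidase that acts on Ang II, had the lowest value of that list. It was at 4.32, 5.82 and 3.09 FPKM in Ang II hearts and 2.54, 2.40 and 2.39 FPKM in Ang II + Tec hearts. The groups did not overlap, as for 21.8% of all genes. The sum over 5 leukocyte markers, led by Lyz2, followed the same pattern, at 187.3, 322.5 and 149.7 FPKM against 119.3, 109.5 and 119.7 FPKM with Tec. Lyz2 made up most of that sum, at 162.66, 290.03 and 134.94 FPKM in Ang II hearts and 106.51, 97.02 and 107.0 FPKM with Tec. Of that list 4 genes were tested, 0 were called and 4 had lower values at an unadjusted p under 0.05, against 16.5% of all tested genes. The groups of 3 of these 4 genes did not overlap, against 21.8% of all genes. The part of this list in the Prcp values was not tested. The log2 fold change of Prcp was -0.62 (SE 0.19, adjusted p = 0.221 with limma), and with Ang II replicate 3 left out it was -0.81 (adjusted p = 0.00893, in that fit with 28.8% of all genes called). Mme, neprilysin, which forms angiotensin 1-7 from angiotensin I, had the only positive fold change among the 12, 0.098 (SE 0.19, adjusted p = 0.765). Cma1, a mast cell chymase that can form Ang II without Ace, was at 0.73, 0.86 and 0.17 FPKM in Ang II hearts and 0.47, 0.33 and 0.52 FPKM in Ang II + Tec hearts, with a log2 fold change of -0.11 (adjusted p = 0.713). The sum over 4 mast cell markers, led by Tpsb2, was between 1.08 and 2.11 FPKM, with Ang II replicate 1 highest.

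Of the 3 other receptor genes 2 were tested and 0 were called. Atp6ap2, the (pro)renin receptor and an accessory subunit of the vacuolar proton pump, was at 13.33, 18.15 and 7.46 FPKM in Ang II hearts and 6.83, 9.81 and 6.73 FPKM in Ang II + Tec hearts. Like Ace it was highest in Ang II replicates 1 and 2 and in Ang II + Tec replicate 2, and its groups overlapped. The log2 fold change was -0.61 (SE 0.30, adjusted p = 0.303 with limma). It was -0.34 when Ang II replicate 2 was left out and -0.93 when Ang II replicate 3 was (adjusted p = 0.0147, where 28.8% of all genes were called). Mtus1, whose product binds the type 2 receptor, had a value of -0.19 (adjusted p = 0.419 with limma). It was -0.082 when Ang II replicate 1 was left out and -0.25 when Ang II replicate 2 was. Mrgprd, a receptor related to Mas1, was at or near 0 throughout.

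Of 21 genes of type 1 receptor signal transduction (Gq and G12 family subunits, phospholipases, protein kinase C, inositol trisphosphate receptors, arrestins, receptor kinases, RGS proteins, guanine nucleotide exchange factors and Jak2) 20 were tested, 0 were called, 15 had negative and 5 positive fold changes, and the median was -0.13, which turned to 0.066 with median-of-ratios scaling and 0.064 with quantile normalization. With single libraries left out the median ranged from -0.22 (without Ang II + Tec replicate 2) to -0.073 (without Ang II replicate 1). At an unadjusted p under 0.05 there was 1 gene in the fit of all libraries, Rgs4, against 18.6% of all genes. Rgs4, which speeds the shut-off of Gq and Gi subunits, was at 8.11, 12.11 and 5.82 FPKM in Ang II hearts and 4.21, 4.59 and 5.25 FPKM in Ang II + Tec hearts. Its groups did not overlap, as for 21.8% of all genes, and its log2 fold change was -0.72 (SE 0.23, adjusted p = 0.224 with limma). It was -0.48 when Ang II replicate 2 was left out and -0.95 when Ang II replicate 3 was (adjusted p = 0.0106, in the fit that called 28.8% of all genes). Rgs2, the relative that acts mainly on Gq, stood at 6.28, 6.52 and 6.18 FPKM in Ang II hearts and 2.99, 9.52 and 9.88 FPKM in Ang II + Tec hearts. The Ang II values were close together while those of the Ang II + Tec group lay on both sides of them, and the log2 fold change was 0.072 (SE 0.37, adjusted p = 0.914).

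The mineralocorticoid branch, through which Ang II acts by way of aldosterone, had 5 of its 7 genes in the table and 3 tested, with 0 called and a median of -0.011, which became 0.21 with median-of-ratios scaling and 0.24 with quantile normalization. Nr3c2, the mineralocorticoid receptor, was at 2.40, 2.04 and 2.86 FPKM in Ang II hearts and 2.13, 2.44 and 2.12 FPKM in Ang II + Tec hearts. The groups overlapped, and the log2 fold change was -0.083 (SE 0.13, adjusted p = 0.704 with limma). Hsd11b1, which regenerates active glucocorticoid, had the highest value of this list, 0.21 (SE 0.21, adjusted p = 0.548), and it was 0.032 when Ang II replicate 1 was left out and 0.39 when Ang II replicate 3 was. Of the 7 kinin genes, which share peptidases with the angiotensins, only the carboxypeptidase Cpm was tested (-0.19, SE 0.12, adjusted p = 0.389 with limma). Cpm was -0.052 with median-of-ratios scaling, -0.022 with quantile normalization and -0.12 when Ang II + Tec replicate 2 was left out. The kininogen gene Kng1 was listed at 0 in all 6 libraries.

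**Figure D5:**
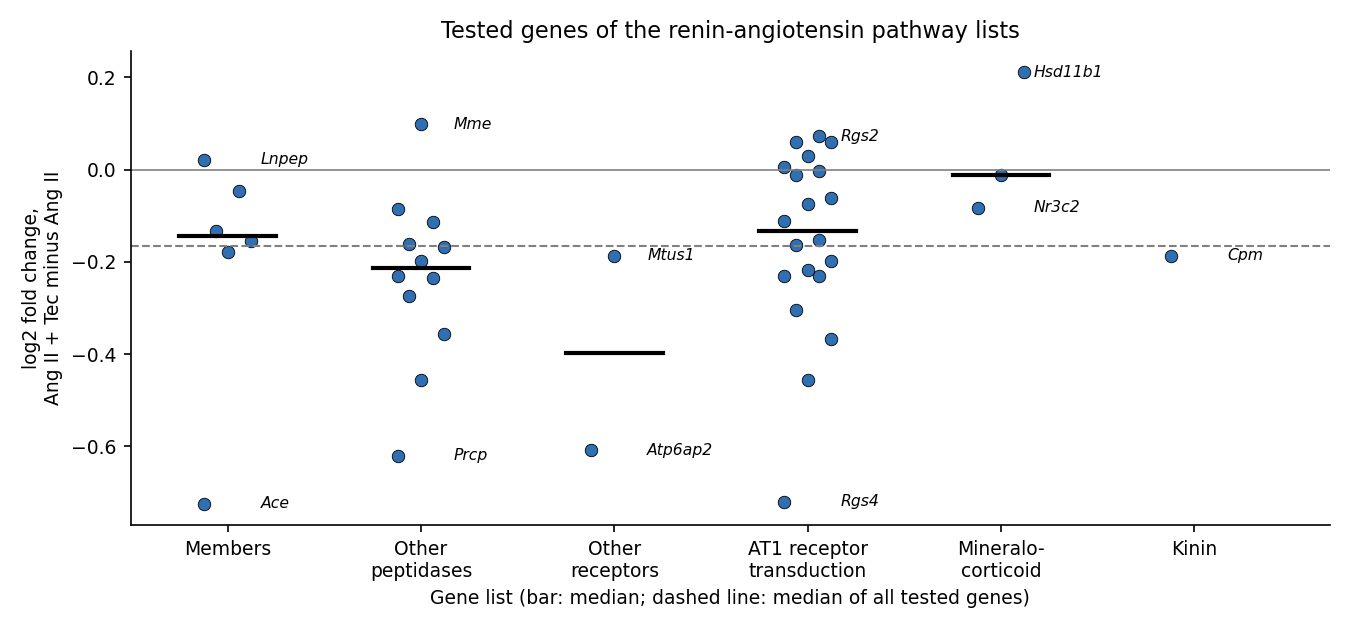
Log2 fold change (Ang II + Tec minus Ang II) of each tested gene of the members and of 5 further lists, 1 point per gene, with a bar at the list's median and the outermost genes named. None of the points passed the adjusted threshold, and most lie near the dashed median of all tested genes at -0.17.

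Some genes followed single members closely across the 6 libraries. Only tested genes outside the members, the pathway lists and the marker lists were ranked. By Pearson's r over the 6 libraries, Ccdc102a (0.9996), Ppa1 (0.9992) and Psmb3 (0.9986) were nearest to Ace among these. Acot11 (0.988), Kcnd3 (0.982) and Tob2 (0.973) were nearest to Agt, and Apoo (0.972), Cyc1 (0.960) and Rbfa (0.959) were nearest to Agtr1a. Emilin1, Serbp1 and Ubxn8 were nearest to Agtrap, Slc17a5, Zfp993 and Paip2 to Enpep, and Tnrc6c, Zbtb37 and Tmem252 to Lnpep. None of these 18 genes was shared between members. The points of each such comparison share their libraries, depth and composition. The genes were picked from the 13089 tested genes, with the listed ones left out, as those with the highest r over 6 points. High values of r thus follow from the choice, and they are given as a description only.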

How the data were processed

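Total RNA of 6 hearts was sequenced as poly(A) libraries with paired ends, 3 per group. Per gene, the authors deposited FPKM made from reads trimmed by Cutadapt, with quality examined in FastQC. The submitters' processing notes list Bowtie 0.12.2, HISAT2 2.0 and StringTie 1.3.0, with no role or order, and the build mm8, whereas 27947 of 30832 shared genes (90.6%) have GRCm38 coordinates of GENCODE M21. Coordinates are given on that build.

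FPKM were used as deposited, as log2(FPKM + 1). Genes at 0.5 FPKM or more in at least 3 libraries were tested with limma 3.58.1 (R 4.3.3, trend on the mean, no covariate), adjusted over 13089 genes and called at an adjusted p under 0.05. Fragments at low genes were approximated from the spacing of low FPKM and the longest transcript, so no counting interval can be given. The labels number the hearts within a group, and p-values measure the spread between these samples. The fit was also run on simulated data with noise drawn independently for each gene. That setting lacks the variation that genes share across these libraries, so it cannot show how the fit behaves under it.

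The members, lists and tests were chosen with earlier results of these data known. The text names all 9 members, Ren1, Nr3c2 and Cma1, each further list's called genes or otherwise the tested genes with its highest and lowest fold change, and the leading marker genes. It also names the 3 tested genes outside all lists that were nearest to each tested member by Pearson's r. Some genes that this rule covers are not reported here. Nnt, Kdr, Pecam1, Myh11, Pdgfrb, Cspg4, Kcnj8, Abcc9, Jak2, Gm11651, Col1a1, Col3a1, Lum, Ctsa, Mrgprd, Kng1, Myl7, Gm48161 and Airn were named after their values were seen. Alternatives changed the pseudocount, filter, scaling, replicate block, variance trend and library weights and left out each library. The atrial factor (Myl7 above 100 FPKM) was added after seeing the data.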

Additional observations from a re-analysis of the deposited data

How the results depend on the processing

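The count of genes called was 24. It was 3 without a filter, 15 at a mean FPKM of at least 1, 3542 (27.1%) with array weights, whose estimation stopped before it converged, and 13 with atrial transcripts as a factor (chosen after seeing the data), and it ranged from 2 (without Ang II + Tec replicate 2) to 3776 (28.8%, without Ang II replicate 3) when single libraries were left out. The tested members called were 1 with array weights and 0 to 1 with a library left out. Those with groups that do not overlap numbered 0 to 3, the 3 being without Ang II replicate 3, where 60.5% of all genes did not overlap. Ace passed the threshold with array weights (-1.26, adjusted p = 0.0309) and without Ang II replicate 3, over a range of -1.10 to -0.46 with single libraries left out. Rescaling by the median of ratios and quantile normalization moved the median of all genes from -0.17 to 0.0020 and 0.020. With them Agt became 0.064 and 0.094, Agtr1a 0.074 and 0.080, Agtrap 0.032 and 0.039, Mtus1 0.034 and 0.037, and Nr3c2 0.076 and 0.098, and Enpep became 0.026 under quantile normalization. With array weights Agt was 0.050, Agtr1a 0.18 and Lnpep -0.065. With single libraries left out Agt ranged from -0.18 to 0.12, Lnpep from -0.10 to 0.11, Cma1 from -0.32 to 0.015, Mme from -0.076 to 0.23, Nr3c2 from -0.17 to 0.0052 and Rgs2 from -0.18 to 0.55. Prcp (-0.81 to -0.44 with single libraries left out), Atp6ap2 (-0.93 to -0.34) and Rgs4 (-0.95 to -0.48) passed the threshold with array weights and without Ang II replicate 3. The cause of these shifts was not tested. Whether replicate numbers pair the mice cannot be told from these data. Correlations of deviations from the group means were -0.039, 0.429 and 0.379 for equal numbers and between -0.435 and 0.226 for unequal numbers. With the replicate block 23 genes were called. The SE of Ace was then 0.16, against 0.34 in the main fit, and its adjusted p was 0.118 (limma).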
